A study of Equus caballus with 4 samples.

Results

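Aminoacyl-tRNA synthetases, their scaffold proteins and the deacylase DTD1 were followed in differentiating equine satellite cells, the stem cells that give rise to new muscle fibres. The set was defined by gene name on the array. It held the cytosolic and mitochondrial synthetases, the 3 scaffold proteins of the multi-synthetase complex (AIMP1, AIMP2 and EEF1E1) and DTD1. By this rule 50 of 43603 gene probes were members, and they stood for 35 of 13350 gene symbols. Of these, 19 genes coded for cytosolic enzymes, 12 for mitochondrial enzymes, 3 for scaffold proteins and 1 for DTD1.

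Each synthetase joins an amino acid to the tRNAs whose anticodons read its codons, and the charged tRNA then brings the amino acid to the ribosome. In the cytosol several synthetases sit together in the multi-synthetase complex, which is held by AIMP1, AIMP2 and EEF1E1 (also known as AIMP3), while the others work as free enzymes. Mitochondria use their own set, coded in the nucleus and mostly named with the suffix 2. DTD1 is a D-aminoacyl-tRNA deacylase, which removes D-amino acids that were joined to a tRNA by mistake. Skeletal muscle makes large amounts of contractile protein during differentiation, and charged tRNA is a direct input of that synthesis.

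The cells came from m. semitendinosus, and the study's methods describe young stallions as the source and 1 primary line as the one chosen for culture. The treated group was kept for 24 h in 0.125 µM GO (gamma-oryzanol, plant sterols esterified with ferulic acid, found in rice bran oil). During the final 1 h these cells were also exposed to 3 mM H2O2 (hydrogen peroxide), which causes oxidative damage. Control cells were without GO. Whether they were exposed to H2O2 is missing from the labels, while the study's methods describe controls given H2O2 and the same vehicle. RNA of both groups was taken on day 3 of differentiation. If the controls were given H2O2, the comparison asked which transcripts differed when GO was present before and during that exposure. If they were not, GO and H2O2 differed together between the groups. On each of 4 two-colour arrays of 1 slide, treated RNA carried the red dye and control RNA the green dye, and no array had the dyes exchanged. A difference between dyes and a difference between treatments therefore cannot be told apart. The labels number the treated samples as biological replicates, but nothing ties them to separate animals. The study's abstract names the muscle of 1 young horse as the source of the cells. The p-values therefore measure the spread between these cultures and arrays, not between animals. On all 4 arrays the labels give the control the same replicate suffix, and whether its RNA came from separate cultures is not settled by them.

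All values below are log2 ratios of treated over control signal, so that a negative value is a lower signal with GO and H2O2. Arrays 1 to 4 are the replicates of the labels, errors are SDs over the 4 arrays, and p-values come from limma with Benjamini-Hochberg adjustment over 24229 tested probes. To be tested, a probe had to exceed background clearly in all arrays of at least 1 channel. Where a gene had several tested probes, the brightest one stands for it. Between 54.9% and 61.4% of gene spots were well above background in a channel. Precision was limited by the number of arrays. Across probes, the log2 ratios of 2 arrays correlated with r between 0.174 (arrays 2 and 3) and 0.697 (arrays 3 and 4).

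The probes of 4 genes are shown because the results turn on them and on whether probes of 1 gene report separately. Positions are those of the array annotation in the build EquCab1. The annotation names the gene of each probe, and exons were not assigned here. The 5 DTD1 probes lie between chr22:6129214-6129273 and chr22:6129231-6129290, on the strand that the files give as minus. They share 43 of 60 bases, which are in capitals, so that they are near copies of 1 measurement.
DTD1 probe ending 4061: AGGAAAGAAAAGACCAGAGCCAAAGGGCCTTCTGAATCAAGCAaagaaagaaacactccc
DTD1 probe ending 4065: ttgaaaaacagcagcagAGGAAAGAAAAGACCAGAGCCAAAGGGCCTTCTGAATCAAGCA
EEF1E1 was read by 4 probes, and the outermost of them, at chr20:7851939-7851998 and chr20:7852003-7852062 on the minus strand, have no base position in common.
EEF1E1 probe ending 6606: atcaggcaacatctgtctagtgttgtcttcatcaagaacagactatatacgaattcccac
EEF1E1 probe ending 6609: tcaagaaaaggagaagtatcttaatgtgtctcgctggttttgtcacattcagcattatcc
YARS, at chr2:22562945-22563004, and FARSA, at chrUn:199704074-199704133, had 1 probe each, both on the plus strand, and stand for a free enzyme that was lower and one that was higher.
YARS: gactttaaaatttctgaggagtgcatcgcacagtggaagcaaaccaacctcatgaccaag
FARSA: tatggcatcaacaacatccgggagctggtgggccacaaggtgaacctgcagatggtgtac

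Of the 35 genes, 32 had a tested probe. LARS, the cytosolic leucine enzyme, was well above background on 0 arrays. LARS2, the mitochondrial leucine enzyme, was above it on 1 array. SARS, AARS2, MARS2, SARS2, TARS2 and WARS2 were not analysed here. Expression was lower with GO and H2O2 for 6 tested members (KARS, DTD1, EEF1E1, YARS, MARS and RARS) and higher for 2 (FARSA and FARSB). These 8 of 32 members stand against 17.3% of all 8140 gene symbols with 1 probe each, and against 17.1% of all tested probes. In the lower direction alone 8.8% of gene symbols passed the threshold, and in the higher direction 8.48%. None of the 8 reached a 1.3-fold difference (0 members), while 101 of the 8140 gene symbols passed the threshold and reached it. An unadjusted limma p under 0.05 was found for 13 of the 32 members and for 3032 of the 8140 gene symbols. Of the 8, 0 passed with array 1, 3 or 4 left out and 4 passed with array 2 left out. With median centring in place of loess, with no pairing of the channels by array, or with the methods' t-test, 0 passed, while all 8 kept their direction in each of these settings. In RNA from whole cultures, fewer cells of a type and less RNA per cell cannot be told apart.

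The mean log2 ratio was below 0 for 26 of the 32 members (81.2%), against 53.7% of all gene symbols. The median over members was −0.09, and that over all gene symbols was −0.01. Array by array the median of the members was −0.10, −0.10, −0.03 and −0.11, so that array 3 lay nearest to 0. Treated and control channel signals did not overlap for 7 members (21.9%), against 13.8% of all gene symbols. These were KARS, MARS, AIMP1, YARS, CARS2, FARS2 and NARS2.

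The cytosolic enzymes charge the tRNAs that serve the bulk of cellular protein synthesis. Among 18 tested genes, 4 were lower (KARS, MARS, RARS and YARS), 2 were higher (FARSA and FARSB) and 12 did not pass the test. Over all gene symbols 8.8% were lower and 8.48% higher. The mean was below 0 for 14 of them. Their median log2 ratio was −0.09, with −0.10, −0.12, −0.01 and −0.10 on arrays 1 to 4.

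Enzymes of the multi-synthetase complex had a mean below 0 in 7 of 7 tested genes. By the test 3 of these were lower, against 8.8% of all gene symbols. Their median was −0.12, with −0.18, −0.18, −0.02 and −0.13 on arrays 1 to 4, and array 3 again lay nearest to 0.

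KARS, the lysine enzyme, which is also the source of the mitochondrial lysine enzyme, had log2 ratios of −0.20, −0.42, −0.18 and −0.32 at chr3:24379424-24379483. All arrays were negative and array 2 was the lowest. The treated channel lay between 14.579 and 14.812 on the log2 signal scale and the control channel between 14.815 and 15.132, so that the groups came close without overlap. The mean was −0.28 ± 0.11 (SD, n = 4; limma adjusted p = 0.0232), a signal that fell by 17.6%. In the list of 8140 gene symbols ordered from the lowest log2 ratio upwards, KARS stood at place 180. Its other probe, which adjoins the first, gave −0.13, −0.28, −0.13 and −0.12. That probe had array 2 lowest too, with a mean of −0.16 ± 0.08 (limma adjusted p = 0.0508), and did not pass the threshold.

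MARS, the methionine enzyme, which also charges the initiator tRNA, had ratios of −0.25, −0.18, −0.19 and −0.13 at chr6:72061439-72061498. All arrays were negative, array 1 was the lowest, and the channel signals did not overlap. The mean was −0.19 ± 0.05 (limma adjusted p = 0.0293). RARS, the arginine enzyme, gave −0.18, −0.12, −0.25 and −0.16 at chr14:11667028-11667087. Here array 3 was the lowest, and the treated and control channels overlapped. Its mean was −0.18 ± 0.05 (limma adjusted p = 0.0346).

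The remaining complex enzymes did not pass the test. DARS, the aspartate enzyme, had ratios of −0.17, −0.24, 0.07 and −0.13. Array 3 was positive and the others negative (mean −0.12 ± 0.13, limma adjusted p = 0.181). IARS, the isoleucine enzyme, had −0.27 and −0.20 on arrays 1 and 2, −7.35e-05 on array 3 and 0.02 on array 4. Its mean of −0.11 ± 0.15 thus came from arrays 1 and 2 (limma adjusted p = 0.222). QARS, the glutamine enzyme, had −0.10, −0.13, −0.02 and −0.04, negative on all arrays but small (mean −0.07 ± 0.05, limma adjusted p = 0.231). EPRS, which joins the glutamate and proline enzymes in 1 protein, had a mean of −0.04 on its brightest probe (limma adjusted p = 0.557) and −0.09 on the adjoining one (limma adjusted p = 0.190).

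**Figure D1:**
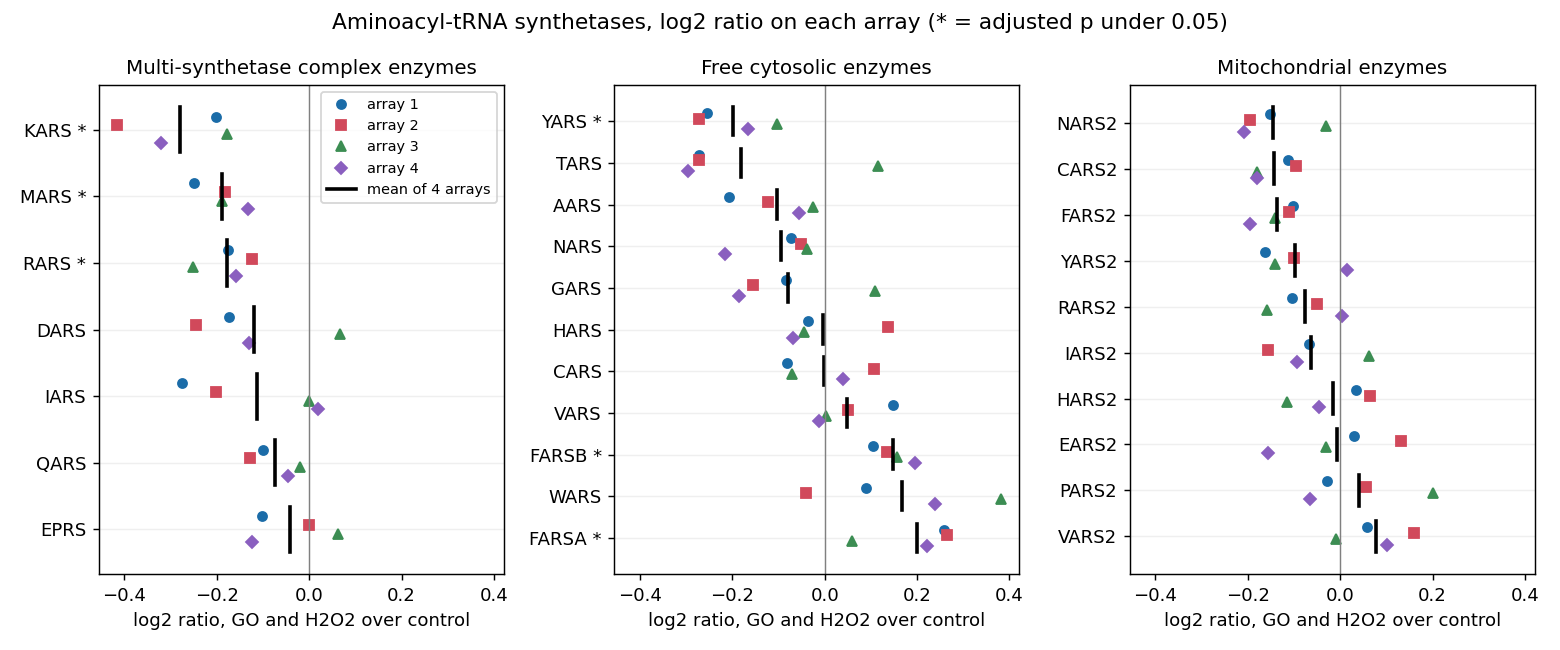
Log2 ratio of GO and H2O2 over control on each of the 4 arrays for the tested synthetases, in panels for the multi-synthetase complex, the free cytosolic and the mitochondrial enzymes (1 row a gene, brightest probe). Symbols are arrays, the black bar is their mean, and an asterisk marks a limma adjusted p under 0.05; the bar lies below 0 in 7 of 7 complex enzymes, 7 of 11 free enzymes and 8 of 10 mitochondrial enzymes.

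Scaffold proteins hold the complex together and have further roles outside it. All 3 had a mean below 0, and 1, EEF1E1, passed the test, as did 17.3% of all gene symbols. Their median log2 ratio was −0.16.

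EEF1E1 had ratios of −0.22, −0.36, −0.10 and −0.14 on its brightest probe. All arrays were negative, array 2 was the lowest, and the treated and control channels overlapped. The mean was −0.20 ± 0.12 (limma adjusted p = 0.0462). The 4 probes of the gene all passed the test, with means of −0.22, −0.20, −0.18 and −0.24 in the order of their positions. On the outermost pair, whose sequences do not overlap, limma adjusted p was 0.0258 and 0.0196. Both values came from the same 4 hybridisations.

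AIMP1, which also has a secreted cytokine form, had ratios of −0.16, −0.06, −0.21 and −0.22. All arrays were negative, array 2 was nearest to 0, and the channel signals did not overlap. Its mean of −0.16 ± 0.08 lay just outside the threshold (limma adjusted p = 0.0510). AIMP2, which links subunits of the complex, had ratios of −0.03, 0.17, −0.17 and −0.09. Array 2 was positive and the others negative, so that the mean of −0.03 ± 0.14 was smaller than its spread (limma adjusted p = 0.745).

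The free cytosolic enzymes went in both directions. Of 11 tested genes, 1 (YARS) was lower, 2 (FARSA and FARSB) were higher and 8 did not pass the test. The shares of all gene symbols were 8.8% lower and 8.48% higher. The mean was below 0 for 7 of the 11, and the median log2 ratio was −0.00328. The difference between complex and free enzymes was not tested.

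YARS, the tyrosine enzyme, had ratios of −0.26, −0.27, −0.10 and −0.16. All arrays were negative, with arrays 1 and 2 lowest, and the treated and control channels did not overlap. The mean was −0.20 ± 0.08 (limma adjusted p = 0.0338), a signal that fell by 12.9%.

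Phenylalanine is charged in the cytosol by an enzyme of alpha subunits, coded by FARSA, and beta subunits, coded by FARSB. FARSA had ratios of 0.26, 0.26, 0.06 and 0.22. All arrays were positive and array 3 was the smallest. The mean was 0.20 ± 0.10 (limma adjusted p = 0.0388), a signal 14.9% higher with GO and H2O2. FARSB, at chr6:11664087-11664146, had ratios of 0.10, 0.14, 0.16 and 0.20. These were positive on all arrays with a narrow spread (mean 0.15 ± 0.04, limma adjusted p = 0.0452). For both subunits the treated and control channel signals overlapped. At places 7530 (FARSA) and 7087 (FARSB) of 8140 they stood among the members with the highest ratios, with WARS at place 7266 between them.

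TARS, the threonine enzyme, had −0.27, −0.27, 0.12 and −0.30. Array 3 opposed the other arrays, and the mean was −0.18 ± 0.20 (limma adjusted p = 0.135). WARS, the tryptophan enzyme, which is inducible by interferon, had 0.09, −0.04, 0.38 and 0.24. Array 2 was slightly negative and array 3 the highest (mean 0.17 ± 0.18, limma adjusted p = 0.140). AARS, the alanine enzyme, had −0.21, −0.12, −0.02 and −0.05, all negative and largest on array 1 (mean −0.10 ± 0.08, limma adjusted p = 0.153). The 5 AARS probes are each shifted by 1 base and gave means from −0.07 to −0.10.

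Among the other free enzymes, GARS, the glycine enzyme, which also serves mitochondria, had a mean of −0.08 on its brightest probe (limma adjusted p = 0.356) and −0.15 on its other probe (limma adjusted p = 0.0774). NARS, the asparagine enzyme, had −0.09 and −0.06 on its 2 probes. HARS (histidine) and CARS (cysteine) had means of −0.00328 and −0.00152, with limma adjusted p of 0.967 and 0.984. VARS, the valine enzyme, had a mean of 0.05 (limma adjusted p = 0.465).

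**Figure D2:**
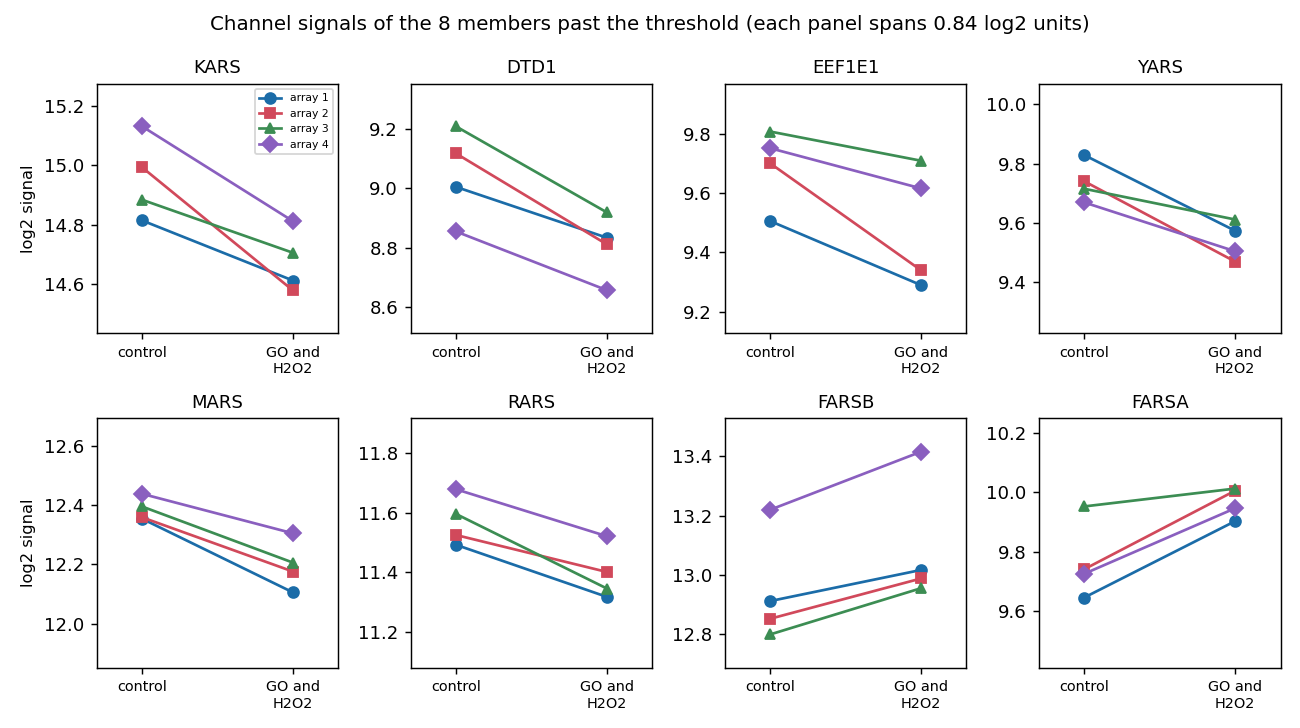
Normalised log2 signal of the control and the treated channel for the 8 members that passed the test, 1 panel a gene, with a line for each array and the same span of log2 units in every panel. Every line falls in KARS, DTD1, EEF1E1, YARS, MARS and RARS and rises in FARSB and FARSA, while the 2 channels are clear of each other over all arrays only in KARS, YARS and MARS.

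Mitochondrial synthetases charge the tRNAs used to translate the few proteins coded by mitochondrial DNA, which are subunits of the respiratory chain and ATP synthase. None of the 10 tested genes passed the threshold (0 by limma), against 17.3% of all gene symbols. With so few genes, a count of 0 lies near that share. An unadjusted limma p under 0.05 was found for 3 of them, against 3032 of all 8140 gene symbols. The mean was below 0 for 8 of the 10. Their median log2 ratio was −0.07, with −0.08, −0.07, −0.07 and −0.08 on arrays 1 to 4. Over arrays these medians had an SD of 0.00542, against 0.0501 for the cytosolic enzymes. Single genes varied by similar amounts in both classes, with a median SD of 0.0802 for mitochondrial and 0.0888 for cytosolic enzymes. The sign was the same on all arrays for 3 of 10 mitochondrial genes, 9 of 18 cytosolic genes and 3638 of 8140 gene symbols. The difference between cytosolic and mitochondrial enzymes was not tested.

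CARS2, the cysteine enzyme, had ratios of −0.11, −0.10, −0.18 and −0.18. All arrays were negative and the channel signals did not overlap (mean −0.14 ± 0.04, limma adjusted p = 0.0519). FARS2, the phenylalanine enzyme, which unlike its cytosolic counterpart is a single chain, had −0.10, −0.11, −0.14 and −0.20. It too was negative on all arrays without overlap (mean −0.14 ± 0.04, limma adjusted p = 0.0562), so that it lay on the other side of 0 from FARSA and FARSB. NARS2, the asparagine enzyme, had −0.15, −0.20, −0.03 and −0.21. Array 3 was nearest to 0 and the channels did not overlap (mean −0.15 ± 0.08, limma adjusted p = 0.0686).

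YARS2, the tyrosine enzyme, had −0.16, −0.10, −0.14 and 0.02, negative on all arrays but array 4 (mean −0.10 ± 0.08, limma adjusted p = 0.167). RARS2, the arginine enzyme, had the same pattern of signs with −0.10, −0.05, −0.16 and 0.00477 (mean −0.08 ± 0.07, limma adjusted p = 0.242). VARS2, the valine enzyme, had 0.06, 0.16, −0.01 and 0.10, with array 3 slightly negative (mean 0.08 ± 0.07, limma adjusted p = 0.239). IARS2, HARS2, EARS2 and PARS2 had means of −0.06, −0.02, −0.01 and 0.04, with limma adjusted p from 0.373 to 0.942. EARS2 was above background on 3 of 4 arrays in the control channel, and PARS2 on 3 of 4 in the treated channel. HARS and HARS2, whose probes lie 15772 bases apart on chromosome 14, both had values near 0.

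DTD1 was lower on every array and on every probe. On its brightest probe, ending 4061, the ratios were −0.17, −0.31, −0.29 and −0.20, all negative with arrays 2 and 3 lowest. The mean was −0.24 ± 0.07 (limma adjusted p = 0.0215), a signal that fell by 15.4%, and DTD1 stood at place 309 of 8140. The treated channel read between 8.66 and 8.92 and the control channel between 8.85 and 9.21 on the log2 signal scale. Array 4 was the dimmest in both channels, so that the groups overlapped although each array had its control channel above its treated one.

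The other probes of DTD1 lie at most 17 bases further along. The probe ending 4062 gave −0.21, −0.29, −0.27 and −0.22 (mean −0.25 ± 0.04), 4063 gave −0.24, −0.21, −0.22 and −0.10 (mean −0.19 ± 0.06), and 4064 gave −0.23, −0.27, −0.24 and −0.20 (mean −0.24 ± 0.03). The probe ending 4065, which begins 17 bases before the shared stretch, gave −0.31, −0.31, −0.27 and −0.35. It had the lowest mean of the 5, −0.31 ± 0.03 (limma adjusted p = 0.0142). The other 3 had limma adjusted p of 0.0179, 0.0321 and 0.0186. DTD1 was picked by the study from these arrays for RT-qPCR, so that its difference here is no independent evidence. By RT-qPCR the study reported DTD1 as lower with GO too, with a much larger fold change than on these arrays.

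**Figure D3:**
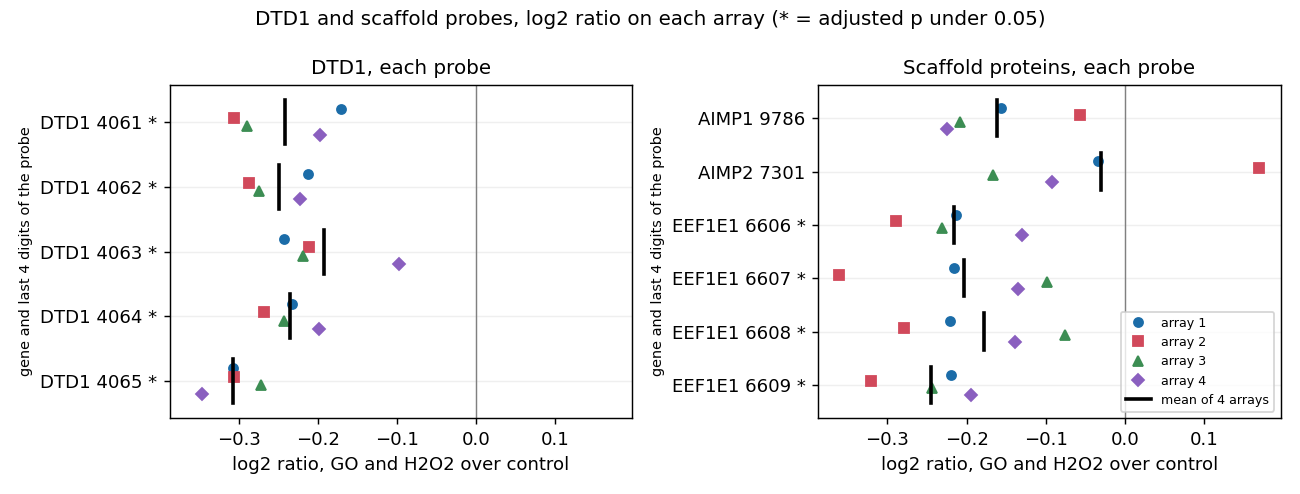
Log2 ratio of GO and H2O2 over control on each array for every probe of DTD1 and of the scaffold proteins, with the mean of 4 arrays as a black bar and an asterisk for a limma adjusted p under 0.05. All 5 DTD1 probes and all 4 EEF1E1 probes lie below 0 on every array, AIMP1 lies below 0 on every array without passing the threshold, and AIMP2 has array 2 above 0.

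Genes that act beside the synthetases were taken from 3 lists. The first held accessory charging genes, such as those that amidate or modify the amino acid once it is on the tRNA. Of 8 tested genes, 8 had a mean below 0 (median −0.11). An unadjusted limma p under 0.05 was found for 4, against 3032 of all 8140 gene symbols. Against 8.8% of all gene symbols, 1 was lower by the test. That was QRSL1, a subunit of the mitochondrial glutamyl-tRNA amidotransferase, with −0.29, −0.13, −0.27 and −0.14 (mean −0.21 ± 0.08, limma adjusted p = 0.0327). DTD2, a second D-aminoacyl-tRNA deacylase, had −0.19, −0.09, −0.12 and −0.13 (mean −0.13 ± 0.04, limma adjusted p = 0.0610) and did not pass. It was named after its values were seen, as the counterpart of DTD1.

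The second list held genes of tRNA maturation and export. Of 18 tested genes, 4 were lower, 0 were higher and 14 did not pass the test, with a median of −0.06. Among all gene symbols 8.8% were lower and 8.48% higher. RPP40, a protein subunit of RNase P, which trims the 5′ end of tRNA precursors, had −0.39, −0.43, −0.44 and −0.38. It was negative on all arrays with a narrow spread (mean −0.41 ± 0.03, limma adjusted p = 0.0106). SSB, the La protein that binds the 3′ end of new tRNA precursors, had a mean of −0.28 ± 0.06 (limma adjusted p = 0.0168). POP1, also of RNase P, had −0.24 ± 0.08 (limma adjusted p = 0.0240), and RTCB, the tRNA splicing ligase, had −0.22 ± 0.12 (limma adjusted p = 0.0403).

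The third list held the amino acid response, in which the factor ATF4 is known to raise genes of amino acid synthesis and transport and many cytosolic synthetases. Of 21 tested genes, 1 was lower, 2 were higher and 18 did not pass, and the median was −0.01. The 3 that passed stand against 17.3% of all gene symbols. ASNS, asparagine synthetase, had 0.59, 0.07, 0.48 and 0.22. It was positive on all arrays, highest on array 1 and lowest on array 2 (mean 0.34 ± 0.24, limma adjusted p = 0.0440). EIF4EBP1, an inhibitor of cap-dependent translation, was higher by 0.16 ± 0.05 (limma adjusted p = 0.0409). PSPH, the last enzyme of serine synthesis, was lower, with a mean of −0.29 ± 0.04 (limma adjusted p = 0.0153). ATF4 itself had 0.19, 0.03, 0.30 and 0.12 (mean 0.16 ± 0.11, limma adjusted p = 0.0797) and did not pass, and it was named after its values were seen.

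Markers of cell state were read on the same arrays, where 8.8% of all gene symbols were lower and 8.48% higher by the test. Muscle genes were higher in 6 of 9 tested cases (ACTC1, MYL1, TNNT3, MYOG, CKM and MYH3), with a median of 0.33. Their summed level was 18.24 to 18.42 on the log2 signal scale in the treated channel and 17.91 to 18.09 in the control channel, without overlap. PAX7 and TTN were not analysed here. Proliferation genes passed in 0 of 8 tested cases by limma, with 0 at an unadjusted p under 0.05. Their median was −0.28, 0.41, −0.53 and −0.49 on arrays 1 to 4, so that array 2 opposed the others, with a summed level of 12.92 to 13.68 in the treated and 13.25 to 13.71 in the control channel. The part of either list in the synthetase values was not tested.

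Other cell types were checked by their markers. In the fibroblast list, LUM was lower (−0.43, limma adjusted p = 0.0131) and THY1 higher (0.28, limma adjusted p = 0.0290) among 4 tested genes, with a summed level of 17.42 to 17.60 in the treated and 17.19 to 17.46 in the control channel. Of 3 tested immune markers, CD14 was lower (−0.17, limma adjusted p = 0.0385), with a summed level of 11.96 to 12.11 in the treated and 12.08 to 12.24 in the control channel. The defining immune markers CD3E and CSF1R were above background on 0 arrays. Of the endothelial markers, PECAM1, CDH5, KDR and VWF were above background on 0 arrays and TEK on 1. The adipocyte markers ADIPOQ, FABP4 and PPARG were above background on 0 arrays and LEP on 1.

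**Figure D4:**
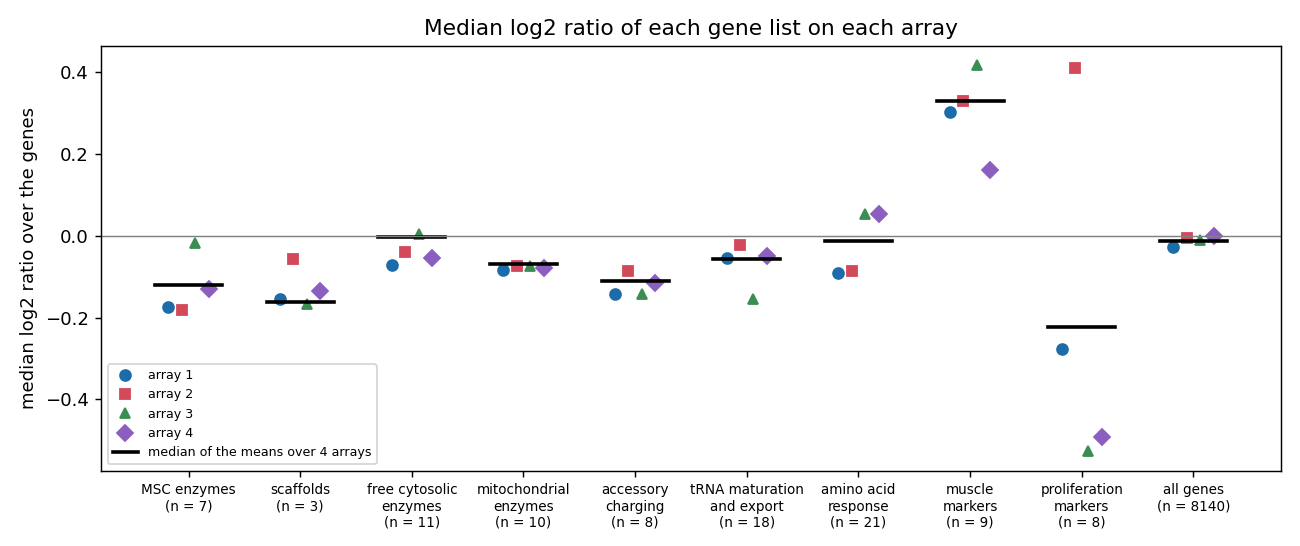
Median log2 ratio over the tested genes of each list on each array, with the number of genes under each name; the black bar is the median of the genes' means over 4 arrays. The mitochondrial enzymes lie at −0.07 to −0.08 on all arrays, the complex enzymes below 0 with array 3 nearest to it, the muscle markers above 0, and the proliferation markers at 0.41 on array 2 against −0.28 to −0.53 on the others.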

How the data were processed

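Gene expression of equine satellite cells was measured on 4 two-colour Agilent horse arrays, treated RNA in Cy5 and control RNA in Cy3. Per the file headers, the authors extracted spot intensities with Agilent Feature Extraction version 10.10.1.1. The deposited log10 ratios are processed red over green, and the series matrix of the authors repeats them. Mean intensities were corrected with normexp (offset 50) against background medians and normalised by loess within each array, with control spots at weight 0. Control and outlier spots were left out (7 to 16 outlier spots an array, 0 saturated) and spots of a probe averaged. The mean log2 ratio was tested against 0 with limma version 3.58.1 (R version 4.3.3, lmFit and eBayes, two-sided) at a threshold of 0.05. The fit alone was tried on simulated ratios with known shifts and independent noise. Deviations shared by the probes of an array were not simulated. The study's methods name Student's test and a 1.3-fold limit, while its gene list is given at a lower fold limit. Members and lists were chosen with earlier results of these data known. Named from each class were up to 6 members with the smallest p, every scaffold and DTD1 probe, and up to 4 genes past the threshold from other lists. The array pairs the channels: deviations of red and green from their means correlated on each array (r from 0.118 to 0.582). Alternatives covered background, normalisation, filter, probe choice, variance model, array block, the methods' t-test and each array left out. For 1 member without a tested probe the values are not reported here.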

Additional observations from a re-analysis of the deposited data

Results flagged for a closer look

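HARS had a log2 ratio of 0.14 on replicate 2, far from −0.04, −0.05 and −0.07 on replicates 1, 3 and 4. TARS had a log2 ratio of 0.12 on replicate 3, far from −0.27, −0.27 and −0.30 on the others. In both, 1 array stood apart from the other 3 by Dixon's criterion. Among 32 members examined, 2 were picked out, and chance picks about 1 in 20. Neither gene passed the test (limma adjusted p = 0.967 for HARS and 0.135 for TARS).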

How the results depend on the processing

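The 8 members past the threshold kept their direction in all 17 alternatives. They did not all keep their call. With all probes, the count of 4137 fell to 12 with median centring in place of loess (0 lower), to 5 with the methods' t-test and to 594 with no replicate block, that is, without the pairing of channels by array. Leaving out 1 replicate gave 0 to 3898 (2 when replicate 1 was left out, 3898 for replicate 2, 38 for replicate 3, 0 for replicate 4). The cytosolic count of 6 became 3 with the series matrix or Agilent's processed signals, 4 with offset 0 (all lower), 0 with median centring, the methods' t-test or no replicate block, and 0 to 3 with 1 replicate left out (0 without replicate 1, 3 or 4). The mitochondrial count of 0 became 1 with offset 0, Agilent's processed signals, the series matrix, limma trend and robust, array weights and the mean over probes. That gene was NARS2 with Agilent's processed signals and the series matrix, and CARS2 in the other settings. Without background correction CARS2 was −0.04 (limma adjusted p = 0.505), and with offset 0 it was −0.19 (0.0455). NARS2 was −0.09 without background correction (0.222) and −0.28 with Agilent's processed signals (0.0345). The median of the mitochondrial enzymes (−0.0700) was −0.0451 without background correction, −0.0797 with offset 0, −0.106 with Agilent's processed signals and the series matrix, −0.0901 with median centring, −0.0472 without a filter, −0.0870 with a filter in both channels, and −0.0787 to −0.0647 with 1 replicate left out. The cytosolic median stayed within its spread over arrays in all 16 alternatives. DTD1 no longer passed with median centring (−0.26, limma adjusted p = 0.763), with the methods' t-test (−0.24, adjusted p = 0.0851), with no replicate block (−0.24, 0.131) and without replicate 1, 3 or 4 (0.0820, 0.0676 and 0.0843), and its ratio ranged from −0.26 to −0.22 with 1 replicate left out. It passed without replicate 2 (0.0362). AIMP2, never past the threshold, ranged from −0.10 (without replicate 2) to 0.0147 (without replicate 3). EEF1E1 lost its call without background correction (limma adjusted p = 0.0525), with offset 0 (0.0560) and with a running median (0.0563), FARSA with offset 0 (0.0538), and FARSB with offset 0 (0.0716), Agilent's processed signals (0.0919) and no filter (0.0502). MARS (0.0501) and RARS (0.0547) lost theirs with Agilent's processed signals. All 8 passed with array weights, limma trend and robust, the mean over probes and a filter in both channels, and 4 passed without replicate 2. The cause of these changes was not tested.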
